A study of Mus musculus with 9 samples.

Results

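Integrins are cell-surface receptors made of an alpha and a beta chain that hold a cell to the matrix around it. The 10 genes described here, measured in mouse hearts, were Itga1, Itga5, Itga7, Itga8, Itga11, Itgav, Itgb1, Itgb3, Itgb5 and Itgbl1, chosen by name. Earlier results of these data were known when the choice was made. All 10 were found among the 55401 rows of the deposited count table, each on 1 row, and all 10 passed the filter on low counts that left 19051 genes for testing. KO-TAC hearts (3 libraries) were from mice homozygous for a floxed c-Myc allele that also carried 1 Tcf21 iCre allele, which places a tamoxifen-activated Cre in cells that use Tcf21, chiefly cardiac fibroblasts. They had undergone transverse aortic constriction (TAC), an operation that tightens the aorta and raises pressure load. TAC hearts (3 libraries) came from wild-type mice after the same operation, and both groups carry a time of 12 weeks. Control hearts (3 libraries) were wild type; the design names a sham operation. Operations were on males aged 8 to 12 weeks. The design describes tamoxifen (45 mg/kg, 5 days in a row) for the knockout line without saying if wild-type mice had it, so tamoxifen, Cre and c-Myc loss cannot be told apart in the comparisons with KO-TAC.

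The alpha chain largely sets which matrix protein an integrin binds, and the beta chain joins the receptor to the actin cytoskeleton through talin, kindlin and their partners. The beta-1 chain pairs with many alpha chains, among them collagen receptors (alpha-1 and alpha-11), receptors for the RGD motif of fibronectin and related proteins (alpha-5, alpha-8 and alpha-v) and a laminin receptor of muscle (alpha-7). Alpha-v also pairs with beta-3 and beta-5, and integrins with alpha-v can release TGF-beta from its latent complex in the matrix. In the heart these receptors anchor cardiomyocytes to the basement membrane and fibroblasts to collagen and fibronectin, and they carry mechanical force into the cell.

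The libraries held 59702513 to 109162107 counts. Values below are CPM, counts scaled to library size with TMM factors (a trimmed-mean correction for composition), and differences are log2 with a standard error (SE) from 1 edgeR quasi-likelihood fit to all 9 libraries, with p adjusted by Benjamini-Hochberg over all 19051 genes. Myc had 4.22, 1.87 and 4.75 CPM in KO-TAC hearts and 8.93, 6.22 and 14.2 CPM in TAC hearts, the direction of the labels, against 2.15, 2.47 and 1.55 CPM in control hearts (KO-TAC against TAC: edgeR adjusted p = 0.56). The TAC hearts differed widely from one another. The summed level of 6 cardiomyocyte markers (Myh6, Tnnt2, Tnni3, Actn2, Ttn and Ryr2) was 27700 to 45500 CPM in KO-TAC hearts, then 25700, 52500 and 10800 CPM in TAC replicates 1, 2 and 3, against 49300 to 50600 CPM in control hearts. By this sum TAC replicate 2 was slightly above the control range and TAC replicate 3 far below it. Myh6 was the largest part of the sum in every heart (33400 to 33700 CPM in control hearts). In TAC replicate 2 Tnnt2, Tnni3 and Actn2 were above their control ranges and Ryr2 (1030 against 1180 to 1610 CPM) below. In TAC replicates 1 and 3 every marker was below its control range, by little for Tnni3 in TAC replicate 1 (2980 against 3060 to 3310 CPM). The tissue is labelled as heart, with no cell sorting, so fewer cells of a type and less RNA per cell cannot be told apart.

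In TAC hearts the fibronectin receptor chain Itga5, the beta-3 chain Itgb3, the collagen receptor chain Itga11 and the secreted integrin-like gene Itgbl1 were 2.35-fold to 5.59-fold higher than in control hearts, and the muscle laminin receptor chain Itga7 was 1.63-fold lower. In KO-TAC hearts Itga5 was near the control level, 2.42-fold below TAC, while the means of Itga11 and Itgbl1 were nearer to TAC than to control hearts. Itgb1, the most abundant of the 10 per transcript length, and Itgav differed by less than 1.25-fold in every comparison. With 3 hearts a group and the wide TAC group, none of the 10 passed the edgeR test after adjustment in any of the 3 comparisons, and 0% of all genes did. The 4 higher genes had unadjusted edgeR p of 0.0012 to 0.017 in TAC against control; 21.3% of all genes had one under 0.05 there, 13.2% as higher.

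**Figure D1:**
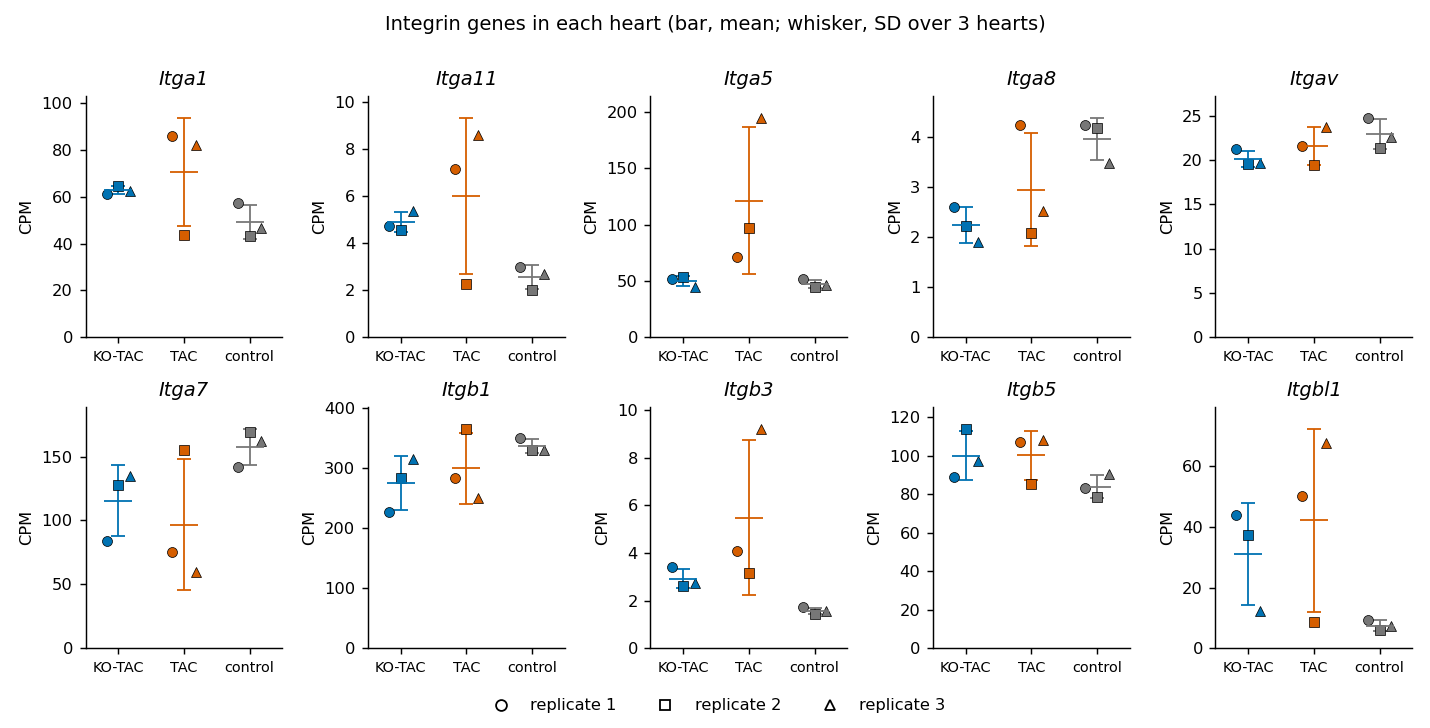
Level of each integrin gene in CPM (linear axis from 0) in every heart of the KO-TAC, TAC and control groups; the symbol shape is the replicate number, the bar the mean and the whisker the SD over 3 hearts. Itga5 in TAC hearts, at 71.2 to 195 CPM, lies above all KO-TAC hearts (45 to 53.8 CPM) and all control hearts (45 to 51.5 CPM).

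Levels of different genes were compared as CPM per kilobase of the longest protein-coding transcript in GENCODE's basic set. Gene positions below are from the same annotation, on GRCm38. The order over KO-TAC hearts was Itgb1 (72.3 CPM per kilobase), Itgb5 (30.5), Itga7 (28.8), Itga5 (11.4), Itgbl1 (7.67), Itga1 (5.72), Itgav (2.85), Itga11 (0.982), Itgb3 (0.508) and Itga8 (0.386). Over TAC hearts it was Itgb1 (78.6), Itgb5 (30.4), Itga5 (27.7), Itga7 (24), Itgbl1 (10.4), Itga1 (6.43), Itgav (3.06), Itga11 (1.21), Itgb3 (0.95) and Itga8 (0.508), again in CPM per kilobase. Over control hearts it was Itgb1 (88.3), Itga7 (39.2), Itgb5 (25.6), Itga5 (10.9), Itga1 (4.48), Itgav (3.25), Itgbl1 (1.86), Itga8 (0.684), Itga11 (0.514) and Itgb3 (0.274). Neighbours in the control order did not overlap between hearts. In TAC hearts neighbours overlapped from Itgb5 down to Itga1 and from Itga11 to Itga8, and the wide range of Itgbl1 (2.18 to 16.6 CPM per kilobase) also covered that of Itgav, and in KO-TAC hearts Itgb5 overlapped Itga7, and Itgbl1 overlapped both Itga5 and Itga1. Itga8, the lowest in both loaded groups, was not the lowest in control hearts, where Itgb3 was.

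Itga11 (chr9:62677826-62783982, plus strand), the alpha-11 chain that binds fibrillar collagen and is known from fibroblasts, had 4.7, 4.57 and 5.37 CPM in KO-TAC hearts, then 7.15, 2.26 and 8.6 CPM in TAC hearts, against 2.99, 1.99 and 2.69 CPM in control hearts. TAC replicate 2 was within the control range, and all 3 KO-TAC hearts were above all 3 control hearts. It differed by 1.23 on the log2 scale (SE 0.43) in TAC against control (2.35-fold, edgeR adjusted p = 0.17) and 0.93 (SE 0.43) in KO-TAC against control (1.91-fold, edgeR adjusted p = 0.85). KO-TAC differed from TAC by -0.30 (SE 0.42), and without TAC replicate 3 by 0.06, so that direction rested on 1 heart.

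Itga1 (chr13:114953096-115101964, minus strand), the alpha-1 chain that binds basement membrane and other collagens, had 61.3, 64.6 and 62.3 CPM in KO-TAC hearts, then 86, 43.8 and 81.9 CPM in TAC hearts, against 57.2, 43.4 and 46.8 CPM in control hearts. TAC replicates 1 and 3 were the highest of the 9 and TAC replicate 2 was at the control level. Its log2 difference was 0.52 (SE 0.26) in TAC against control and 0.35 (SE 0.26) in KO-TAC against control (edgeR adjusted p = 0.27 and 0.87). Pelo lies within Itga1 on the same strand, with a mean of 13.5 CPM, and the sources used here do not say how shared reads were counted. The ratio of Itga11 to Itga1, both per transcript length, was 0.156 to 0.19 in KO-TAC hearts, 0.184, 0.114 and 0.232 in TAC hearts and 0.101 to 0.127 in control hearts. The ratio was thus higher in all KO-TAC hearts than in any control heart, and TAC replicate 2 again lay with the controls.

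Itga5 (chr15:103344286-103366763, minus strand), the alpha-5 chain of the main fibronectin receptor, was the member that separated TAC hearts from both other groups. It had 51.4, 53.8 and 45 CPM in KO-TAC hearts, then 71.2, 97.1 and 195 CPM in TAC hearts, against 51.5, 45 and 46.2 CPM in control hearts. All 3 TAC hearts were above all 6 others, TAC replicate 2 included, although that heart was within the control range for Itga1 and Itga11. Itga5 differed by -1.28 on the log2 scale (SE 0.34) in KO-TAC against TAC (2.42-fold lower, edgeR adjusted p = 0.46, DESeq2 adjusted p = 0.042) and 1.35 (SE 0.34) in TAC against control (2.55-fold higher, edgeR adjusted p = 0.14, DESeq2 adjusted p = 0.008). KO-TAC differed from control by 0.07 (SE 0.33). The DESeq2 call in KO-TAC against TAC held without any 1 TAC library and was lost without any 1 KO-TAC or control library (DESeq2 adjusted p = 0.1 to 0.36), and that in TAC against control was lost without any 1 control library (DESeq2 adjusted p = 0.053 to 0.085). These comparisons share the TAC hearts, and without TAC replicate 3 the folds were 1.67 (lower in KO-TAC) and 1.76 (higher in TAC). The 6 epicardial and mesothelial markers Wt1, Upk3b, Msln, Upk1b, Tbx18 and Krt19, none at 0 in every library, summed to 11.2 to 15.4 CPM in KO-TAC hearts, 29.3 to 30.2 CPM in TAC hearts and 11.1 to 20.9 CPM in control hearts. Their sum separated TAC hearts from both other groups, but of the 6 genes only Wt1 did so alone, at 3.18 to 5.2 CPM in KO-TAC hearts, 9.79, 8.55 and 21.7 CPM in TAC hearts and 3.57 to 6.27 CPM in control hearts. In TAC replicate 3, the heart with the most Itga5, Wt1 was the largest part of the sum and Upk3b (0.417 CPM) was below every control heart. Among the 6 endothelial markers described below, only Pecam1 also separated TAC hearts from both other groups. It had 133 to 148 CPM in KO-TAC hearts, 158 to 265 CPM in TAC hearts and 127 to 140 CPM in control hearts. The other 5 overlapped between TAC and control hearts. The part of these markers in the Itga5 values was not tested.

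For the other RGD receptor chains the TAC hearts overlapped both other groups. Itga8 (chr2:12106632-12301922, minus strand), the alpha-8 chain that binds fibronectin and nephronectin, had 2.61, 2.22 and 1.9 CPM in KO-TAC hearts, then 4.24, 2.09 and 2.53 CPM in TAC hearts, against 4.25, 4.18 and 3.49 CPM in control hearts. All KO-TAC hearts were below all control hearts, and TAC replicate 1 was at the control level. Itga8 differed by -0.82 on the log2 scale (SE 0.31) in KO-TAC against control (1.77-fold lower, edgeR adjusted p = 0.85). Itgav (chr2:83724397-83806916, plus strand), the alpha-v chain, had 21.2, 19.5 and 19.7 CPM in KO-TAC hearts, then 21.6, 19.4 and 23.7 CPM in TAC hearts, against 24.8, 21.4 and 22.6 CPM in control hearts. Itgav had the narrowest range of the 10 over the 9 hearts, with a root mean square deviation of 0.119 on the log2 scale. Its differences were -0.10 (KO-TAC against TAC), -0.19 (KO-TAC against control) and -0.09 (TAC against control), each with an SE of 0.15; with library size alone as the scaling, the last was 0.21 and the one before it 0.056.

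Itga7 (chr10:128933818-128958282, plus strand), the laminin-binding alpha chain of heart and skeletal muscle, was low where the cardiomyocyte marker sum, of which Myh6 was the largest part, was low. It had 83.8, 128 and 135 CPM in KO-TAC hearts, then 75.5, 155 and 59.6 CPM in TAC hearts, against 142, 169 and 162 CPM in control hearts. The 2 TAC hearts with low marker sums were also the 2 lowest hearts for Itga7, and all 3 KO-TAC hearts were below all control hearts. Itga7 had a log2 difference of -0.71 (SE 0.36) in TAC against control and -0.44 (SE 0.36) in KO-TAC against control (edgeR adjusted p = 0.28 and 0.88). KO-TAC differed from TAC by 0.26 (SE 0.36), by 0.78 without TAC replicate 2 and by 0.02 without TAC replicate 3. The part of the marker levels in these values was not tested.

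**Figure D2:**
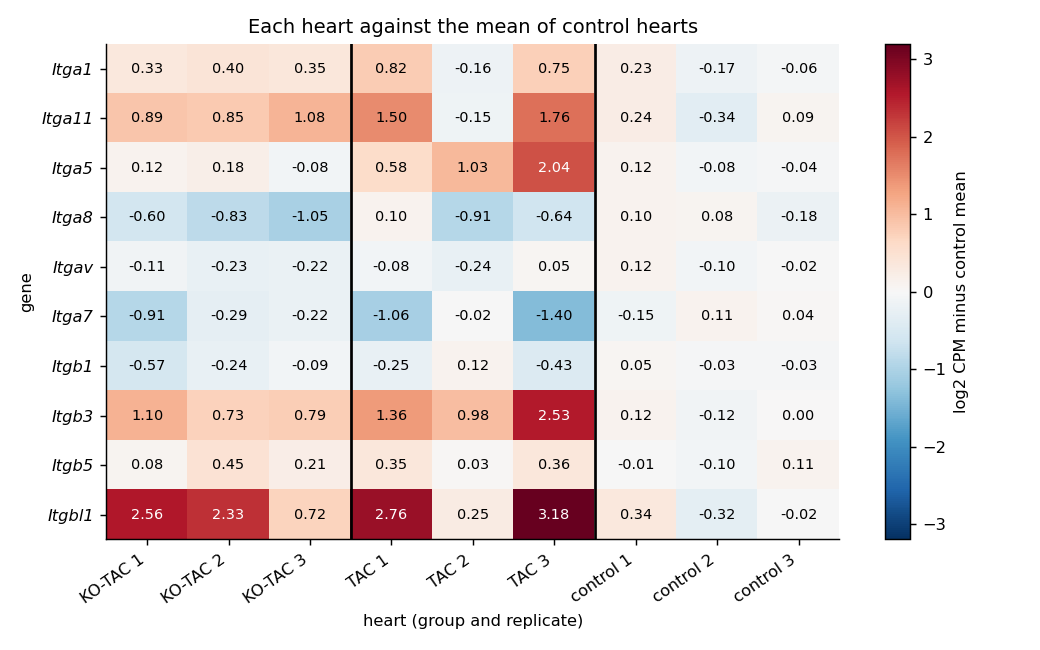
Log2 CPM of each integrin gene (rows) in each heart (columns, KO-TAC, TAC and control) minus the mean of the 3 control hearts; red is higher and blue lower. TAC replicate 2 differed from control by -0.15 for Itga11 and 0.25 for Itgbl1, but by 1.03 for Itga5 and 0.98 for Itgb3.

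The make-up of the mRNA of 5 alpha chain genes also differed between hearts. Itgav was not counted, nor were alpha chain genes outside the 10, such as Itga6 and Itga9 (16.9 and 7.07 CPM per kilobase over control hearts). Of the summed CPM per kilobase of Itga1, Itga5, Itga7, Itga8 and Itga11, which pair with beta-1, Itga7 held 60.3% ± 6.8 in KO-TAC hearts, 40.6% ± 19 in TAC hearts and 70.2% ± 3.9 in control hearts (SD, n = 3 each). Itga5 held 24.6% ± 4.8 in KO-TAC hearts, 44.8% ± 17 in TAC hearts and 19.5% ± 2.2 in control hearts. In TAC replicate 3 Itga5 made up 64.6% and Itga7 21.5%, the reverse of their order in the other 8 hearts. The Itga5 share in TAC hearts, 33.9% to 64.6%, was above that of every KO-TAC heart (20.1% to 29.7%) and every control heart (17.9% to 22%). Itga11 was a minor part throughout, at 1.79% to 2.39% in KO-TAC hearts, 0.696% to 3.2% in TAC hearts and 0.698% to 1.12% in control hearts.

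**Figure D3:**
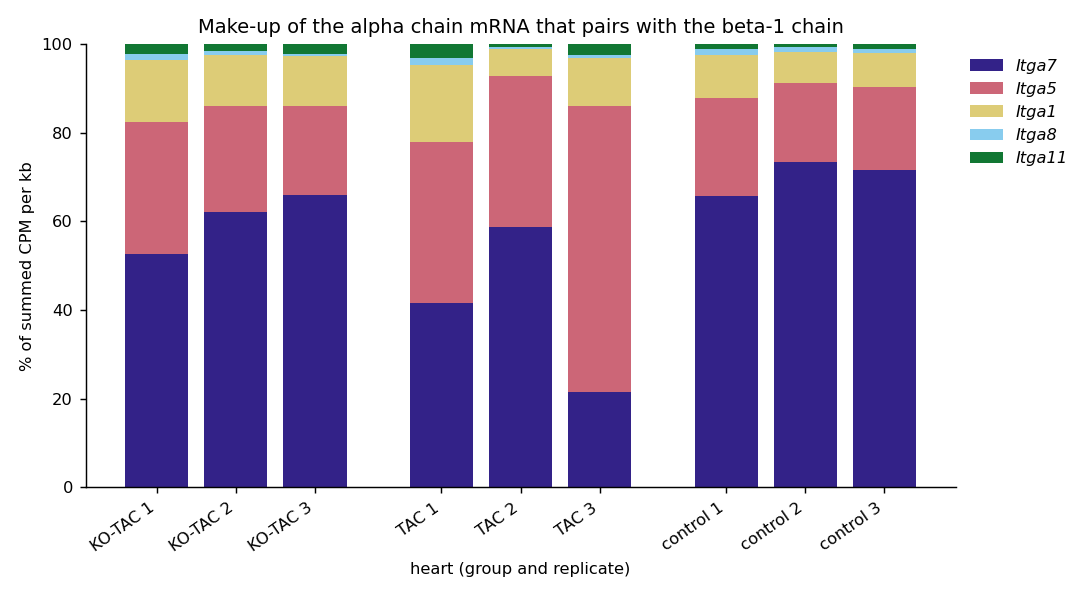
Share of each of 5 alpha chain genes in their summed CPM per kilobase (percent, linear axis) in each heart. Itga7 is the largest share in 8 of the 9 hearts and Itga5, at 64.6%, in TAC replicate 3.

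Among the beta chains, Itgb1 (chr8:128685654-128733200, plus strand) is the shared partner of those alpha chains. It had 227, 284 and 316 CPM in KO-TAC hearts, then 284, 366 and 250 CPM in TAC hearts, against 350, 331 and 330 CPM in control hearts. All KO-TAC hearts were below all control hearts, while TAC hearts lay on both sides of them. Itgb1 had log2 differences of -0.12 in KO-TAC against TAC, -0.29 in KO-TAC against control and -0.17 in TAC against control, each with an SE of 0.25; the last was 0.058 with library size alone. Itgb1 per transcript length was 1.45 to 1.62 times the sum of the 5 alpha chains in KO-TAC hearts, 1.65, 1.47 and 0.947 times in TAC replicates 1, 2 and 3, and 1.51 to 1.71 times in control hearts. TAC replicate 3 was the single heart in which these 5 alpha chains together exceeded Itgb1. The sum leaves out Itgav, Itga6 and Itga9, so it does not give the balance of all alpha chains with Itgb1.

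Itgb3 (chr11:104608000-104670476, plus strand), the beta-3 chain of the vitronectin receptor and, with Itga2b, of the platelet fibrinogen receptor, was the one of the 3 beta chains among the 10 genes with the largest fold in each comparison. It had 3.41, 2.64 and 2.75 CPM in KO-TAC hearts, then 4.11, 3.15 and 9.22 CPM in TAC hearts, against 1.72, 1.46 and 1.58 CPM in control hearts. Every loaded heart, KO-TAC or TAC, was above every control heart, and TAC replicate 3 was more than double the next. Itgb3 differed by -0.90 on the log2 scale (SE 0.38) in KO-TAC against TAC (edgeR adjusted p = 0.66), 0.89 (SE 0.39) in KO-TAC against control (edgeR adjusted p = 0.85) and 1.79 (SE 0.39) in TAC against control (3.47-fold, edgeR adjusted p = 0.13, DESeq2 adjusted p = 0.0017). Leaving out TAC replicate 3 gave folds of 1.23 (lower in KO-TAC against TAC) and 2.27 (higher in TAC against control). The 6 platelet markers Pf4, Ppbp, Itga2b, Gp9, Gp1bb and Gp1ba, none at 0 in every library, summed to 11.7 to 26.9 CPM in KO-TAC hearts, 17.3 to 28.4 CPM in TAC hearts and 12 to 15.6 CPM in control hearts. Pf4 was the largest part of the sum in every heart. Gp1ba was lower in TAC replicates 1 and 3 (1.79 and 0.81 CPM) than in any control heart (1.86 to 2.51 CPM), while the others were higher in TAC replicate 3. The part of the platelet markers in the Itgb3 values was not tested.

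Itgb5 (chr16:33829665-33949338, plus strand), the other partner of alpha-v measured here, had 89, 114 and 97.2 CPM in KO-TAC hearts, then 107, 85.4 and 108 CPM in TAC hearts, against 83.2, 78.4 and 90.5 CPM in control hearts. The groups overlapped in all 3 comparisons. The log2 difference was 0.0040 (SE 0.20) in KO-TAC against TAC, and turned negative with RLE, upper-quartile or library-size scaling (-0.013, -0.024 and -0.064); it was 0.25 (SE 0.20) in KO-TAC against control and 0.25 (SE 0.20) in TAC against control. The ratio of Itgb3 to Itgb5, both per transcript length, was 0.0131 to 0.0218 in KO-TAC hearts, 0.0209 to 0.0487 in TAC hearts and 0.00989 to 0.0117 in control hearts. Itgb3 thus stayed a small fraction of Itgb5 in every heart, and the ratio was higher in all 6 loaded hearts than in any control heart.

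Itgbl1 (chr14:123659971-123975618, plus strand) encodes a secreted protein with repeats like those in the stalk of beta integrins and without the part that spans the membrane, so it is not a receptor chain. It had 43.9, 37.4 and 12.2 CPM in KO-TAC hearts, then 50.2, 8.84 and 67.6 CPM in TAC hearts, against 9.41, 5.93 and 7.3 CPM in control hearts. TAC replicate 2 was within the control range and KO-TAC replicate 3 just above it, while the 4 other loaded hearts were at 37.4 CPM or more. Itgbl1 had a log2 difference of 2.48 (SE 0.69) in TAC against control (5.59-fold, edgeR adjusted p = 0.14, DESeq2 adjusted p = 0.006) and 2.05 (SE 0.68) in KO-TAC against control (4.13-fold, edgeR adjusted p = 0.85, DESeq2 adjusted p = 0.15). KO-TAC differed from TAC by -0.44 (SE 0.65), and by 0.09 without TAC replicate 3. The DESeq2 call in TAC against control was lost without control replicate 2, control replicate 3 or TAC replicate 3 (DESeq2 adjusted p = 0.053 to 0.072). The 6 fibroblast markers Pdgfra, Dcn, Lum, Tcf21, Dpt and Mfap5, none at 0 in every library, summed to 866, 709 and 623 CPM in KO-TAC hearts, then 1160, 454 and 1210 CPM in TAC hearts, against 437 to 471 CPM in control hearts. Dcn was the largest part of the sum, and of the 6 only Dcn was above all control hearts in every KO-TAC heart. Tcf21 was below them in every KO-TAC heart (3.89 to 4.13 against 4.9 to 6.44 CPM), and 4 overlapped. KO-TAC mice carried a Tcf21 iCre allele, and its part in these Tcf21 values was not tested. In TAC replicate 2 Pdgfra and Lum were below their control ranges and Dpt and Mfap5 above. Itgbl1, Itga11 and Itga1 were at the control level in TAC replicate 2, as was the sum of these markers. The part of the markers in those values was not tested.

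Stretches of 250 bases upstream of RefSeq's start are shown for Itga5, the member that separated TAC hearts from both other groups, Itgbl1, the member with the largest fold in TAC against control, and Itgb1, which holds the one motif match. They are from RefSeq on GRCm38.p6 and run 5′ to 3′ on the gene's strand. The Itga5 stretch is chr15:103366792-103367041 on the minus strand, the Itgbl1 stretch chr14:123659890-123660139 on the plus strand and the Itgb1 stretch chr8:128685404-128685653 on the plus strand. GENCODE starts Itgbl1 at 123659971, before RefSeq does, so most of the Itgbl1 stretch lies inside the gene by GENCODE. Capitals mark a match to a searched motif.
Itga5: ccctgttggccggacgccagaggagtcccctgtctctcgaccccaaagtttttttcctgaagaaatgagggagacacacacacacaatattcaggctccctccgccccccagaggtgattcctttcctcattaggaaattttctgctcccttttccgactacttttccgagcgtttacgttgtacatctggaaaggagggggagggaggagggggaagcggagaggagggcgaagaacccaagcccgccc
Itgbl1: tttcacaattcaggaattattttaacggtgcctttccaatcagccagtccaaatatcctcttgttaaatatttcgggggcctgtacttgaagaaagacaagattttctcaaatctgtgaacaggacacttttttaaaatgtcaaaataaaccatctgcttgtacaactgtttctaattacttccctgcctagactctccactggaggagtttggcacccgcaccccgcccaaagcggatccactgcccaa
Itgb1: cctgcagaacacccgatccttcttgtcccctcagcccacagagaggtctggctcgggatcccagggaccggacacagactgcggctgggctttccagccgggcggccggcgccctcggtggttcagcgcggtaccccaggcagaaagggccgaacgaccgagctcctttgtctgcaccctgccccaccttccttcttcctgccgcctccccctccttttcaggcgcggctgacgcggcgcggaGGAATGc
Of the 10 genes 8 had an entry, and Itga7 and Itgb3 did not. The motifs searched on both strands were CACGTG (the E-box that Myc and Max bind), TGANTCA (bound by AP-1) and CATTCC (bound by TEAD factors). CACGTG was in 0 of the 8 stretches beside 6.02% of all 32851 stretches of that length, TGANTCA in 0 beside 6.75%, and CATTCC in 1, Itgb1, beside 12.6%. The Itgb1 match starts 7 bases upstream of the transcript start. A match describes letters in this window and no binding.

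For TAC against control as a whole, 6 of the 10 genes were higher (51.5% of all genes were) and 4 lower, those 4 including Itgav and Itgb1, which turn under library-size scaling. The median log2 difference was 0.39, beside 0.026 over all genes. DESeq2 called Itga5, Itgb3 and Itgbl1 higher, 3 of 10, beside 8.55% of the genes it tested (5.68% as higher). The 10 genes were chosen with earlier results known, so counts of them beside such shares are descriptions and no test. Limma-voom with quality weights, which gives less weight to hearts far from their group, called 6 of 10 beside 38% of all genes (18.2% higher, 19.8% lower): Itga1, Itga5, Itga11, Itgb3 and Itgbl1 as higher and Itga7 as lower. Its difference for Itga5 was smaller than that of edgeR, at 1.63-fold beside 2.55-fold. The edgeR fit without TAC replicate 2 called the same 6 genes beside 27.5% of all genes (13.5% higher, 14% lower), with Itgbl1 7.78-fold, Itgb3 4.17-fold, Itga11 3.07-fold, Itga5 2.79-fold and Itga1 1.7-fold higher and Itga7 2.35-fold lower. The TAC and control hearts did not overlap for 2 of the 10 (Itga5 and Itgb3), both higher, beside 28.1% of all genes (14.1% as higher).

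KO-TAC against TAC compares both loaded groups, and tamoxifen, Cre and c-Myc loss cannot be told apart in it. There 8 of 10 genes were lower and 2 higher, beside 50.8% of all genes higher (9 and 1 with RLE, upper-quartile or library-size scaling, where Itgb5 turns). The median log2 difference was -0.24 beside 0.01 over all genes, and -0.028 without TAC replicate 3. DESeq2 called 1 of 10, Itga5 as lower, beside 1.03% of the genes it tested (0.615% as lower), and limma-voom with quality weights called 0 beside 5.23% (Itga5: 1.5-fold lower beside 2.42-fold with edgeR, limma-voom adjusted p = 0.078). Unadjusted, 2 of 10 had an edgeR p under 0.05, Itga5 and Itgb3, both lower, beside 7.45% of all genes (4.51% as lower). The groups did not overlap for 1 of 10, Itga5, beside 9.96% of all genes (4.8% as lower).

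For KO-TAC against control, 6 of 10 were higher (53.8% of all genes were) and 4 lower (Itgav turns with library-size scaling), with a median log2 difference of 0.16 beside 0.038 over all genes. The groups did not overlap for 8 of the 10, beside 26.5% of all genes (12.9% above, 13.6% below): Itga1, Itga11, Itgb3 and Itgbl1 were above and Itga7, Itga8, Itgav and Itgb1 below in every KO-TAC heart. Few of these differences were large against their SE, and 3 of 10 had an unadjusted edgeR p under 0.05 (Itgb3 and Itgbl1 higher, Itga8 lower), beside 5.76% of all genes (3.52% higher, 2.24% lower). DESeq2 called 0 of 10 beside 0.468% of the genes it tested, and limma-voom with quality weights called Itgbl1 as higher (log2 difference 2, adjusted p = 0.026) beside 5.2% of all genes (2.4% as higher). Each pair of comparisons has a group in common, so the 3 sets of values are not independent.

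**Figure D4:**
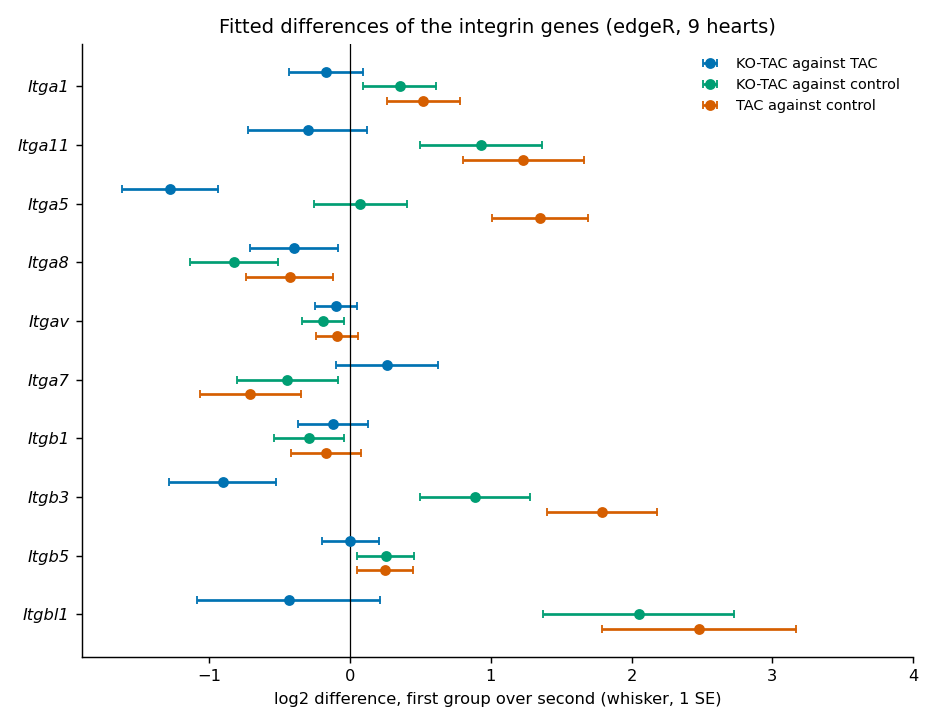
Fitted log2 difference of each integrin gene in KO-TAC against TAC, KO-TAC against control and TAC against control (linear axis; whisker, 1 SE; positive is higher in the first group). Itga5 is near 0 in KO-TAC against control (0.07) and far from it in the other 2 comparisons (-1.28 and 1.35).

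**Figure D5:**
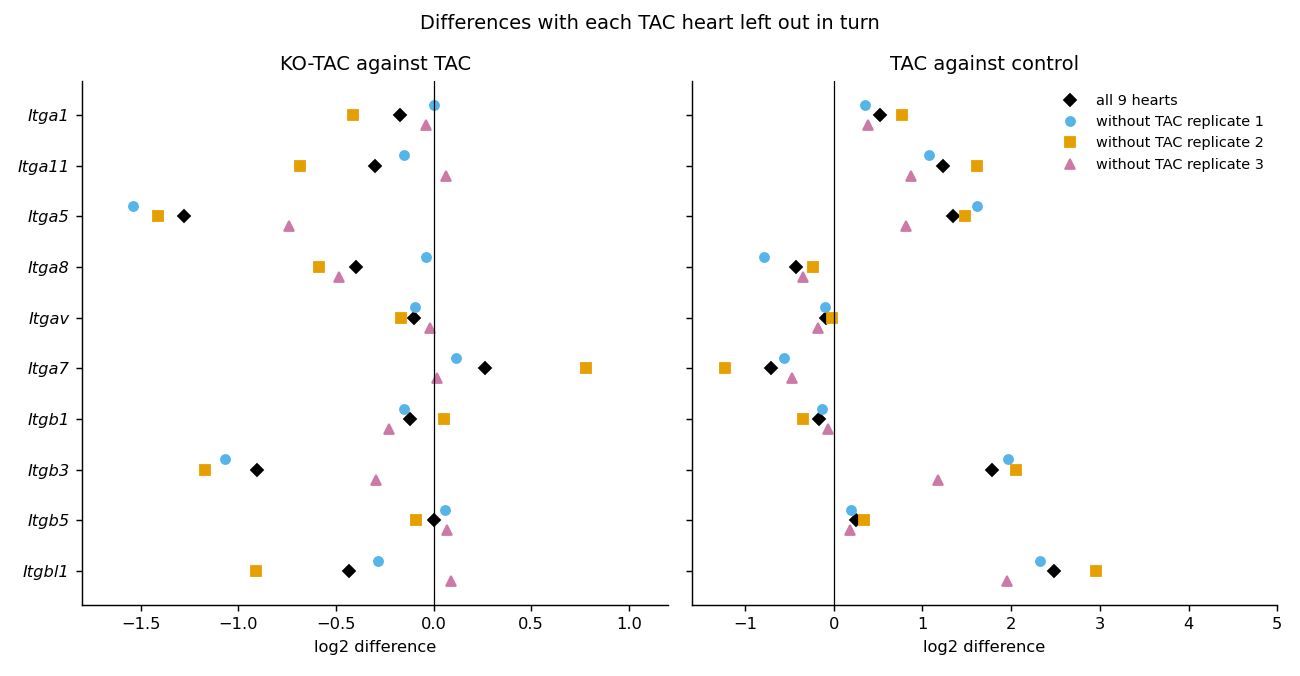
Log2 difference of each integrin gene with all 9 hearts (diamond) and with each TAC heart left out in turn, for KO-TAC against TAC (left) and TAC against control (right). Itga5 in KO-TAC against TAC stays between -1.54 and -0.74, while Itga11 and Itgbl1 reach 0.06 and 0.09 without TAC replicate 3.

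The plot of differences with each TAC heart left out shows how far 1 heart sets a value. In TAC against control, Itga5, Itgb3, Itga11, Itgbl1 and Itga7 kept their side of 0 whichever heart was left out. In KO-TAC against TAC, leaving out TAC replicate 3 brought Itgb3 to -0.30 and Itga7 to 0.02.

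The matrix proteins that these integrins bind were followed through 25 genes, chosen with earlier results of these data known. Counts from such a list beside the share of all genes are descriptions and no test. In TAC against control 18 of the 25 were higher and 7 lower (median log2 difference 0.59), and DESeq2 called 7, all higher, beside 5.68% of the genes it tested: Thbs1, Ccn1, Ccn2, Tnc, Postn, Fbln5 and Spp1. Without TAC replicate 3 it called 4 of them, not Postn, Fbln5 or Spp1. The share of all genes called in that fit was not computed, so a general loss of calls cannot be told apart. In KO-TAC against TAC 23 of 25 were lower (median -0.68), and DESeq2 called 3, all lower, beside 0.615%. In KO-TAC against control 15 were higher and 10 lower (median 0.13), and DESeq2 called Ccn2 higher (2.41-fold, adjusted p = 0.026) beside 0.305%, a call lost without any 1 control library, KO-TAC replicate 1 or KO-TAC replicate 2 (DESeq2 adjusted p = 0.11 to 0.41). Thbs1, a matricellular protein that activates TGF-beta, had 15.7, 12.3 and 10.4 CPM in KO-TAC hearts, then 65.5, 33.1 and 74.3 CPM in TAC hearts, against 9.59, 5.24 and 6.88 CPM in control hearts. Like Itga5 it was high in all 3 TAC hearts, and DESeq2 gave KO-TAC against TAC an adjusted p of 5.1e-06. Tnc, the matrix glycoprotein tenascin-C, had 2.09, 0.955 and 0.798 CPM in KO-TAC hearts, then 3.71, 3.92 and 16.8 CPM in TAC hearts, against 0.788, 0.812 and 1.04 CPM in control hearts. By DESeq2 it was 6.49-fold lower in KO-TAC hearts than in TAC hearts (adjusted p = 0.0047), but 2.96-fold without TAC replicate 3 (adjusted p = 0.072), and the call was also lost without KO-TAC replicate 2 or 3. Ccn2, a matricellular protein, was 2.44-fold lower there (DESeq2 adjusted p = 0.011, and 0.062 and 0.099 without TAC replicate 3 and KO-TAC replicate 3). By edgeR none of the 25 passed.

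The main ligand of alpha-5, fibronectin, was less even. Fn1 had 64.8, 50.2 and 39.8 CPM in KO-TAC hearts, then 74.8, 48.7 and 133 CPM in TAC hearts, against 45.7, 39.9 and 46.6 CPM in control hearts. TAC replicate 2, with 97.1 CPM of Itga5, was within the KO-TAC range for Fn1. The log2 difference of Fn1 was -0.73 in KO-TAC against TAC (edgeR adjusted p = 0.67). Against control, every TAC heart was higher for Fn1, as for Itga5. That difference was 1.94-fold (edgeR adjusted p = 0.18, DESeq2 adjusted p = 0.08, limma-voom adjusted p = 0.0056). The 3 ligand genes of highest mean CPM were Col4a1, Col4a2 and Lamb2, of the basement membrane, with log2 differences in TAC against control of 0.59, 0.53 and -0.10, all without a call by edgeR or DESeq2. The laminin genes Lama2, Lama4, Lamb1, Lamb2 and Lamc1 lay between -0.31 and 0.08 on that scale.

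Inside the cell, 27 of 28 listed genes of cytoplasmic partners of integrins were tested. This list too was chosen with earlier results of these data known. In TAC against control 22 were higher and 5 lower (median log2 difference 0.41), and DESeq2 called 7, all higher, beside 5.68% of the genes it tested: Zyx, Lims2, Actn4, Tgfb1i1, Actn1, Ilk and Pxn. Limma-voom with quality weights called 12 higher and 5 lower, beside 18.2% and 19.8% of all genes. DESeq2 without any 1 control library called 1 or 2 of these genes, and the share of all genes in those fits was not computed. In KO-TAC against TAC 23 of 27 were lower (median -0.30), and DESeq2 called Zyx, a force-sensitive adaptor of focal adhesions, as lower, beside 0.615%. In KO-TAC against control 20 were higher and 7 lower (median 0.17), and edgeR called 0 of the 27 in any comparison. Zyx had 46.2, 46 and 35 CPM in KO-TAC hearts, then 78.9, 63.8 and 83.7 CPM in TAC hearts, against 34.5, 41.5 and 37.3 CPM in control hearts (KO-TAC against TAC: 1.78-fold lower, edgeR adjusted p = 0.36, DESeq2 adjusted p = 0.0079, and 0.11 without KO-TAC replicate 3). As with Itga5, the 3 TAC hearts were above all 6 others. Ilk, the kinase-like scaffold that binds beta tails, differed 1.73-fold between KO-TAC and TAC hearts, lower in KO-TAC (edgeR adjusted p = 0.65), and 2.06-fold between TAC and control hearts, higher in TAC (edgeR adjusted p = 0.14). The 3 most abundant by CPM were Tns1, Flna and Tln1; Tln1, the talin that switches integrins on, had 138, 197 and 187 CPM in KO-TAC hearts, then 179, 198 and 195 CPM in TAC hearts, against 177, 177 and 186 CPM in control hearts. Tln2, a second talin expressed in muscle, had a 2.02-fold lower level in TAC than in control hearts, without a call by edgeR or DESeq2. It was among the 5 genes that limma-voom called lower (limma-voom adjusted p = 0.001), and every TAC heart was below every control heart.

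Likeness was measured as the root mean square difference of centred log2 CPM over the 9 hearts, among 12408 genes with a mean of at least 1 CPM. Nearest to Itgb1 were Mapk6, Ergic1 and Cand1 (0.0631, 0.0662 and 0.067, beside a median of 0.43 over all candidates). Nearest to Itga7 were Dhx32, Ipo13 and Rpap3 (0.0809, 0.0839 and 0.0839, beside 0.6). Nearest to Itga11 were Shisa4, Zfp956 and Vgll3 (0.193, 0.218 and 0.226, beside 0.763). A gene's own spread sets the scale of this measure: the root mean square deviation from the mean was 0.216 for Itgb1, 0.514 for Itga7 and 0.694 for Itga11. Chosen after their values were seen, the nearest to Itga1 were Ptprb, Tek and Leprot (0.1, 0.104 and 0.109), of which Ptprb and Tek encode receptors of endothelial cells, and the nearest to Itgbl1 were Fibin, Bgn and Serpinf1 (0.225, 0.307 and 0.307), of which Bgn and Serpinf1 encode secreted matrix-associated proteins. The 6 endothelial markers Pecam1, Cdh5, Kdr, Tie1, Egfl7 and Emcn, none at 0 in every library, summed to 723 to 879 CPM in KO-TAC hearts, 1160, 667 and 1460 CPM in TAC hearts and 743 to 775 CPM in control hearts. Their sum, like Itga1, was above all control hearts in TAC replicates 1 and 3, while in TAC replicate 2 it was below the control range and Itga1 within it. In TAC replicate 3 Kdr went the other way (175 CPM against 210 to 216 CPM in control hearts). The other endothelial markers were above control there, Egfl7 the most (425 CPM against 83.2 to 89.8 CPM). The part of the endothelial markers in the Itga1 values was not tested.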

How the data were processed

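RNA sequencing of total heart RNA gave 9 libraries in 3 groups of 3. Per the labels' protocols, RNA was extracted with Trizol and libraries were made with a directional kit. Per the submitters' processing notes, the builds were GRCm38 and mm10 and the tools were DESeq2 1.42.0, StringTie 2.2.1, SAMtools 1.15, HISAT2 2.2.1 and Trim Galore 0.6.10. The sources used here do not give the counting tool, the annotation or the strand setting. The values deposited by the authors are raw counts per gene symbol.

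Counts were matched to groups through the labels. The main test was edgeR 4.0.16 in R 4.3.3 (glmQLFit, glmQLFTest, two-sided), with TMM factors, filterByExpr at a minimum count of 10, group as the only term and Benjamini-Hochberg adjusted p under 0.05. Alternatives were other scalings and filters, DESeq2 1.42.0, limma-voom 3.58.1 with quality weights, fits to 2 groups, replicate blocks, removal of mitochondrial genes and each library left out in turn. With 3 hearts against 3, permuting labels exactly can reach no p below 0.1, so this was not used. Whether each library is a separate mouse is not in the labels, and the p-values therefore cover spread among these samples that may be technical. Libraries within a group differed beyond sampling noise, with chi-square over degrees of freedom at 23.42 or above. The tests were tried on simulated data with known large changes and less spread than in these libraries. That trial therefore cannot show how the tests perform at the spread seen here. CPM, and CPM per kilobase with GENCODE M21 transcript lengths, were computed from the deposited counts. Members and gene lists were chosen with earlier results of these data known. Named were all members, list members by smallest p among called genes or by highest CPM, and the 3 genes most like Itgb1, Itga11 and Itga7. Further DESeq2 calls of a list, laminin genes, Fn1, Tln1, Ilk, Tln2 and the genes most like Itga1 and Itgbl1 were named after their values were seen, as were the genes of the closing section other than by this rule.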

Additional observations from a re-analysis of the deposited data

How the results depend on the processing

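Of 570 recomputed values of the 30 member differences under 19 other settings (without the added block described last), 536 kept their direction and their side of the threshold, 17 passed it and 17 changed sign. All 17 sign changes were of differences that did not pass. Library size alone moved the median of all genes by 0.27 in TAC against control and 0.24 in KO-TAC against control, and gave Itgav 0.21 and Itgb1 0.058 in TAC against control and Itgav 0.056 in KO-TAC against control. Limma-voom gave Itga8 0.017 in TAC against control. In KO-TAC against TAC Itgb5 was -0.013 with RLE factors, -0.064 with library size alone, -0.024 with upper-quartile factors, -0.012 with at least 1 CPM in 3 libraries, -0.013 with DESeq2 and -0.020 without mitochondrial genes. With single libraries left out of that comparison, Itga1 ranged from -0.42 to 0.0022, Itgb1 from -0.23 to 0.052, Itgb5 from -0.11 to 0.085, Itga11 from -0.69 to 0.061 and Itgbl1 from -0.91 to 0.090.

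In TAC against control the count of genes called, 0 by edgeR with 4054 at an unadjusted p under 0.05, was 1626 with DESeq2 and 7230 with limma-voom, and 0 to 5477 with single libraries left out (5477 without TAC replicate 2). Members called were 3 with DESeq2, 6 with limma-voom and 0 to 6 with libraries left out. In KO-TAC against TAC genes called, 0 by edgeR with 1420 unadjusted, were 195 with DESeq2, 996 with limma-voom and 0 to 13 with libraries left out; members called were 1 with DESeq2. In KO-TAC against control genes called, 0 by edgeR with 1098 unadjusted, were 89 with DESeq2, 991 with limma-voom, 2 without a low-count filter, 30 in a fit to the 2 groups and 0 to 4 with libraries left out; members called were 1 with limma-voom. The cause of these differences was not tested. The replicate block called 0 genes and 0 members in each comparison. Same-numbered libraries did not deviate together (correlations of -0.255 to 0.124), and not every library matched its own number best, so the numbers do not pair the hearts. The column names number TAC replicates 1, 2 and 3 as 2, 3 and 4; by those numbers TAC and KO-TAC libraries correlated at -0.008 and 0.327. A replicate block with them, like the DESeq2 fits without single libraries added after seeing the data, gives TAC replicate 3 a block of its own and so leaves it out of the differences. It called 7, 1 and 1 genes (TAC against control, KO-TAC against TAC, KO-TAC against control) and 0 members, and gave Itga11 0.10 and Itgbl1 0.018 in KO-TAC against TAC. Counts of Itgb3 were 95 to 797, of Itga11 130 to 743 and of Itga8 134 to 354, the lowest depth of the 10 genes.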

Other observations

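Other integrin subunit genes, a list also chosen with earlier results of these data known, were measured beside the 10. Of 18 listed, 17 were tested and Itgb2l had a count of 0 in every library. In TAC against control 11 of the 17 were higher and 6 lower (median log2 difference 0.31), and DESeq2 called Itga2b higher and Itgb6 lower, 2 of 17 beside 8.55% of the genes it tested. The Itga2b call was lost without any 1 control library, TAC replicate 3 or KO-TAC replicate 2 (DESeq2 adjusted p = 0.057 to 0.24). Limma-voom did not call Itga2b (limma-voom adjusted p = 0.13). The Itgb6 call was lost without control replicate 1 or 2 (DESeq2 adjusted p = 0.071 and 0.05). Itgb6, the beta chain of an alpha-v integrin known from epithelia that activates TGF-beta, had 7.32, 11 and 12.8 CPM in KO-TAC hearts, then 6.65, 6.01 and 2.11 CPM in TAC hearts, against 16.9, 14.3 and 14.3 CPM in control hearts. TAC hearts were below KO-TAC hearts, and KO-TAC hearts below control hearts, without overlap. In KO-TAC against TAC it differed by 1.08 on the log2 scale (adjusted p = 0.65 with edgeR and 0.29 with DESeq2). TAC hearts differed from control hearts by -1.62 on that scale (edgeR adjusted p = 0.14, DESeq2 adjusted p = 0.0054). Itga2b, the platelet partner of beta-3, had 4.14, 2.19 and 1.03 CPM in KO-TAC hearts, then 1.78, 3.4 and 6.86 CPM in TAC hearts, against 1.05, 1.09 and 1.24 CPM in control hearts. The 3 most abundant of these genes by CPM were Itga6, Itga9 and Itgb6. Itga6, a laminin receptor chain, had 66.5, 72.7 and 77 CPM in KO-TAC hearts, then 116, 52.6 and 111 CPM in TAC hearts, against 78.2, 72.3 and 68 CPM in control hearts, with TAC replicate 2 below every other heart.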
